A study of Mus musculus with 4 samples.

Results

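The genes described here encode 2 galectins (*Lgals1*, *Lgals3*), 4 S100 proteins (*S100a4*, *S100a6*, *S100a10*, *S100a11*), 2 annexins (*Anxa1*, *Anxa2*) and the cytoskeletal proteins AHNAK and vimentin (*Ahnak*, *Vim*). They were taken by symbol from the array annotation, and 9 of these 10 genes had at least 1 probe set named for them alone, among 18193 genes so measured. *S100a11* was read only by a probe set that also names its pseudogene *S100a11-ps* and *Gm12854*, and therefore has no value of its own. The 9 measured genes have 20 probe sets, and the brightest of each gene by mean over the arrays stands for it.

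The arrays hold RNA of follicular helper T (TFH) cells from mouse spleen on day 8 of infection with the Armstrong strain of lymphocytic choriomeningitis virus (LCMV). Of 4 arrays, 2 came from Rictor-null mice, in which *Cd4*-Cre deletes floxed *Rictor* (Rictor fl/fl), and 2 from WT mice, their Rictor fl/fl littermates. Rictor is the subunit that defines mTOR complex 2 (mTORC2), and a *Cd4*-Cre also deletes in CD8 T cells. Mice of both sexes were infected at 6 to 10 weeks of age, and by the series description each array pooled cells of at least 5 mice, while a legend of the study gives other numbers of mice, which can be read as fewer per array in both groups.

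Galectins are lectins that bind β-galactosides on glycoproteins, S100 proteins are small EF-hand calcium sensors, and annexins bind membrane phospholipids when calcium rises. Several of them act together: a dimer of S100A10 holds annexin A2 in a complex at the membrane, AHNAK is a giant scaffold that binds this complex, S100A11 binds annexin A1, and S100A4 binds the heavy chain of non-muscle myosin IIA. In T cells, transcripts of this group are known as a mark of effector and memory cells, which carry more of them than naive cells do.

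Of the 9 measured genes, 7 passed as higher in Rictor-null than in WT TFH cells and none passed as lower (limma, two-sided, with p-values adjusted by Benjamini-Hochberg over all 18193 genes and a threshold of 0.05). Over all genes, 19.7% passed, 12.5% as higher and 7.19% as lower. All 9 were above the median of all values, where more genes pass. In a fit of the 10696 genes at or above the median probe set mean, 2484 passed as higher and 1490 as lower. Of the 9, 7 were again higher in that fit. Among the 9, the largest differences were those of *Lgals3* and *Anxa1*, at 1.83 and 1.70 times the WT intensity. *S100a10*, *Anxa2* and *Lgals1* were at 1.33, 1.35 and 1.25 times, *S100a4* and *S100a6* at 1.13 and 1.12 times, and *Ahnak* and *Vim* did not pass. The median log2 fold change of the 9 was 0.32, beside 0.0068 over all genes. At an unadjusted p under 0.05 none of the 9 was lower either, and the methods' t-test called none lower. Both Rictor-null arrays lay above both WT arrays in 7 of the 9 genes, an arrangement found in 30.6% of all genes. Probe set intensities were taken to log2(intensity + 16) for the test, so that fold changes of dim genes are understated. In sorted cells, more transcript per cell and more cells that carry it cannot be told apart.

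**Figure D1:**
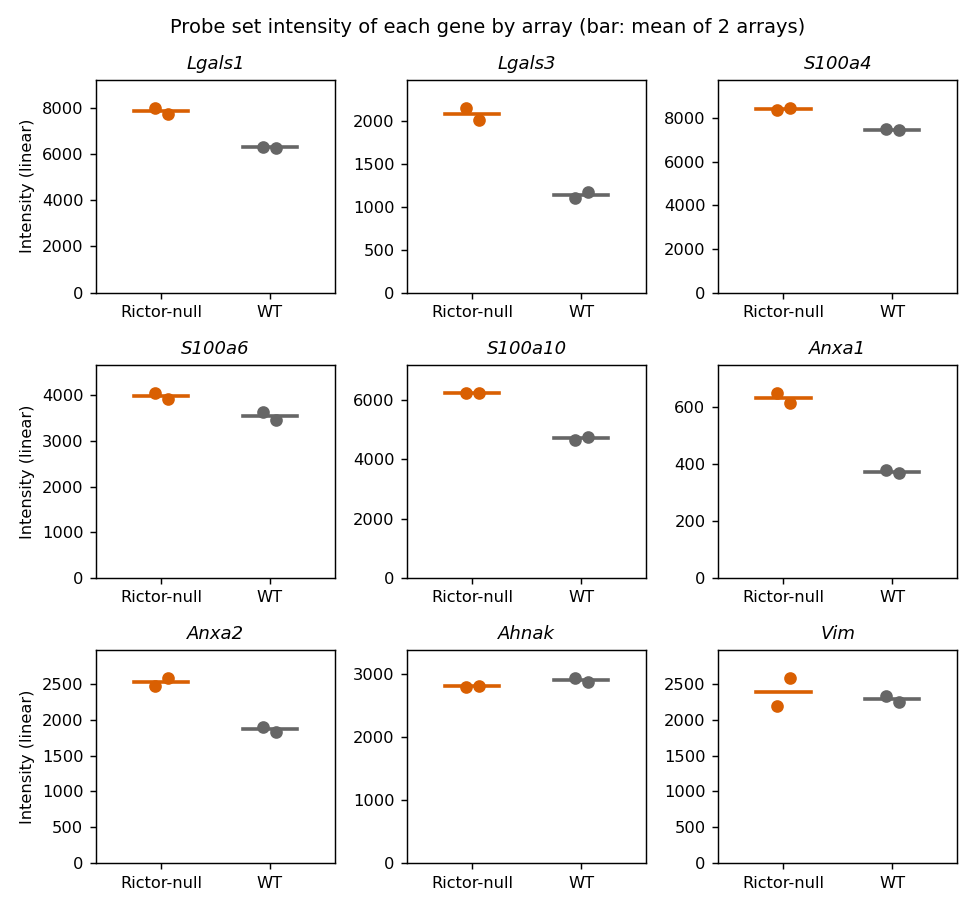
Intensity of the brightest probe set of each gene (y axis, linear, from 0) in the 2 Rictor-null (orange) and 2 WT (grey) arrays; points are single arrays and horizontal bars are group means. In 7 panels both orange points lie above both grey points, while the groups overlap for *Vim* and both orange points of *Ahnak* lie just below the grey ones. Levels of different genes come from different probes and are not comparable.

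Depth has no counterpart on these arrays, and the number of arrays limits the precision. The median intensity was 19.98 to 20.4 on the 4 arrays. *Rictor* itself was at 267 and 279 in the Rictor-null arrays and 334 and 303 in the WT arrays in its brightest probe set (log2 fold change -0.21, adjusted p = 0.0366 from limma, or 0.073 when adjusted over all probe sets). Other bright probe sets of *Rictor* had log2 fold changes of -0.03, 0.06 and 0.11. The sources used here do not say where these probe sets lie relative to the deleted exons. In a separate measurement, the study reported that *Rictor* mRNA could not be detected in TFH cells sorted from Rictor-null mice. All 7 measured T cell markers were above the median of all values, with *Cd3d* at 6517 and 6409 in Rictor-null against 6410 and 6430 in WT cells. *Cd3e*, *Cd4*, *Cd5* and *Cd28* were lower in Rictor-null cells. The second probe sets of *Cd4* and *Cd28* were at log2 fold changes of -0.08 and -0.14. Neither passed (adjusted p = 0.61 and 0.0893 over all probe sets from limma). Without WT replicate 1 the count of lower markers was 2, as *Cd3e* and *Cd4* no longer passed (adjusted p = 0.0994 and 0.214 from limma). *Cd4* also failed without Rictor-null replicate 2 (adjusted p = 0.0699) and *Cd3e* without WT replicate 2 (adjusted p = 0.053). Of 10 TFH markers, 6 were lower in Rictor-null cells and none higher, with *Cxcr5* at 503 and 505 in Rictor-null against 847 and 812 in WT cells, and at an unadjusted p under 0.05 in limma 7 were lower and none higher. The regulatory T cell factor *Foxp3* lay under the median of all values in both groups, at 9.91 and 7.35 in Rictor-null and 7.80 and 10.9 in WT cells. Of the 5 genes of the regulatory T cell list, *Tnfrsf18* and *Il2ra* were higher (log2 fold changes 0.35 and 0.36) and *Ikzf2* lower (-0.39). *Il2ra* lay under the median of all values in both groups, with means of 19.3 in Rictor-null and 11.5 in WT cells. It did not pass without WT replicate 2. Its second probe set was at 0.04 and did not pass (adjusted p = 0.758 over all probe sets from limma).

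*Lgals3* encodes galectin-3, which cross-links N-glycans on T cell surface receptors. Its only probe set read 2157 and 2009 in the Rictor-null arrays, against 1104 and 1172 in the WT arrays. The lower Rictor-null array was above the higher WT array by 0.77 on the log2 scale, while arrays of a group differed by at most 0.10. The means were 2083 ± 105 in Rictor-null and 1138 ± 48.3 in WT cells (SD, n = 2 each), which differ by 0.86 ± 0.05 on the log2 scale (fold change ± standard error in limma, adjusted p = 4.23e-07). That difference ranked 56 from the highest among the 18193 genes.

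*Lgals1* encodes galectin-1, a secreted lectin that can restrain or kill activated T cells. It was at 8017 and 7739 in the Rictor-null arrays and 6323 and 6284 in the WT arrays. Both Rictor-null arrays were thus above both WT arrays, by a smaller proportion than for *Lgals3*. The means were 7878 ± 196 in Rictor-null and 6303 ± 27.3 in WT cells (SD, n = 2 each), apart by 0.32 ± 0.04 on the log2 scale (limma, adjusted p = 6.30e-05). The second probe set of *Lgals1* gave 5766 and 5901 in Rictor-null against 4735 and 4614 in WT cells, and its log2 fold change was also 0.32. The 95% confidence interval of the log2 fold change ran from 0.75 to 0.97 for *Lgals3* and from 0.24 to 0.40 for *Lgals1*. The intervals do not overlap, and the difference between the genes was not tested.

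*Anxa1* encodes annexin A1, an anti-inflammatory ligand of formyl peptide receptors. It was at 652 and 616 in the Rictor-null arrays and 378 and 368 in the WT arrays. The gap between the groups, 0.68 on the log2 scale, was larger than the spread within either group, which reached 0.08. The log2 difference was 0.74 ± 0.05 (limma, adjusted p = 2.50e-06), which ranked 100 from the highest. The second probe set of *Anxa1* read 7.22 and 7.53 in Rictor-null and 6.75 and 7.63 in WT cells, below the median of all values. With the mean of both probe sets the log2 fold change of *Anxa1* was 0.38 and still passed (adjusted p = 0.00271 from limma).

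*Anxa2* encodes annexin A2, which with S100A10 binds plasminogen on the cell surface. It was at 2465 and 2586 in the Rictor-null arrays and 1902 and 1833 in the WT arrays. Here too both Rictor-null arrays were above both WT arrays. On the log2 scale the difference was 0.43 ± 0.04 (limma, adjusted p = 2.90e-05). The other 2 probe sets of *Anxa2* lay below the median of all values in both groups, with log2 fold changes of -0.03 and 0.02, and with the mean of all its probe sets *Anxa2* no longer passed (log2 fold change 0.14, adjusted p = 0.109 from limma).

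*S100a10* encodes the partner of annexin A2, an S100 protein that has lost calcium binding. It was at 6251 and 6250 in the Rictor-null arrays and 4668 and 4740 in the WT arrays. The arrays of each group nearly coincided, and the groups stood apart by 0.40 on the log2 scale. The log2 difference was 0.41 ± 0.04 (limma, adjusted p = 1.10e-05), close to the 0.43 of *Anxa2*. The confidence intervals were 0.33 to 0.49 for *S100a10* and 0.34 to 0.53 for *Anxa2*. Its second probe set gave 4478 and 4632 in Rictor-null against 3892 and 3914 in WT cells, with a log2 fold change of 0.22 (adjusted p = 0.00384 over all probe sets from limma). The third gave 91.8 and 85.4 in Rictor-null against 72.8 and 70.3 in WT cells, with a log2 fold change of 0.26, and did not pass (adjusted p = 0.0603 from limma). In all 3 both Rictor-null arrays lay above both WT arrays.

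*S100a4* encodes a promoter of cell motility that acts on non-muscle myosin. It was at 8388 and 8494 in the Rictor-null arrays and 7512 and 7442 in the WT arrays. The log2 difference was 0.17 ± 0.04 (limma, adjusted p = 0.00338). *S100a6*, which encodes calcyclin, was at 4060 and 3919 in the Rictor-null arrays and 3636 and 3457 in the WT arrays. The log2 difference was again 0.17 ± 0.04 (limma, adjusted p = 0.0117). Both genes were higher in both Rictor-null arrays by a small margin, and both calls depended on single arrays. *S100a4* did not pass without WT replicate 1 or without WT replicate 2 (adjusted p = 0.0545 and 0.068 from limma). *S100a6* kept its call in 1 of the 4 leave-outs, that without Rictor-null replicate 2. It failed without Rictor-null replicate 1, WT replicate 1 or WT replicate 2 (adjusted p = 0.0569, 0.0616 and 0.169 from limma), and also in limma without a trend in mean signal (adjusted p = 0.0715).

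*Ahnak* and *Vim* did not follow the other genes. *Ahnak* was at 2793 and 2812 in the Rictor-null arrays and 2938 and 2868 in the WT arrays of its brightest probe set. Both Rictor-null arrays were slightly below both WT arrays. The log2 fold change was -0.05 (95% confidence interval -0.14 to 0.04, adjusted p = 0.455 from limma). Dimmer probe sets of *Ahnak* gave another picture. A second probe set, far dimmer, read 75.9 and 64.6 in Rictor-null against 38.2 and 43.3 in WT cells (log2 fold change 0.60, adjusted p = 0.00268 over all probe sets from limma). Another read 46.9 and 43.2 in Rictor-null against 28.8 and 32.8 in WT cells (log2 fold change 0.38, adjusted p = 0.0181 from limma), and the last lay below the median of all values with a log2 fold change of 0.0094. With the mean of all 4 probe sets the direction of *Ahnak* turned (log2 fold change 0.24, adjusted p = 0.0226 from limma), so that its direction is not settled by these arrays. The sources used here do not say which exons each of the 4 probe sets reads.

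*Vim* encodes vimentin, the intermediate filament protein of lymphocytes and mesenchymal cells. It was at 2198 and 2586 in the Rictor-null arrays and 2326 and 2242 in the WT arrays. The Rictor-null arrays lay on either side of the WT arrays and differed from each other by 0.23 on the log2 scale, the largest spread within a group among the 9 genes. The log2 fold change was 0.06 (95% confidence interval -0.07 to 0.20, limma, adjusted p = 0.589). Its remaining probe sets were at 0.04 and 0.05. Without Rictor-null replicate 1, *Vim* passed at a log2 fold change of 0.18 (adjusted p = 0.0217 from limma).

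**Figure D2:**
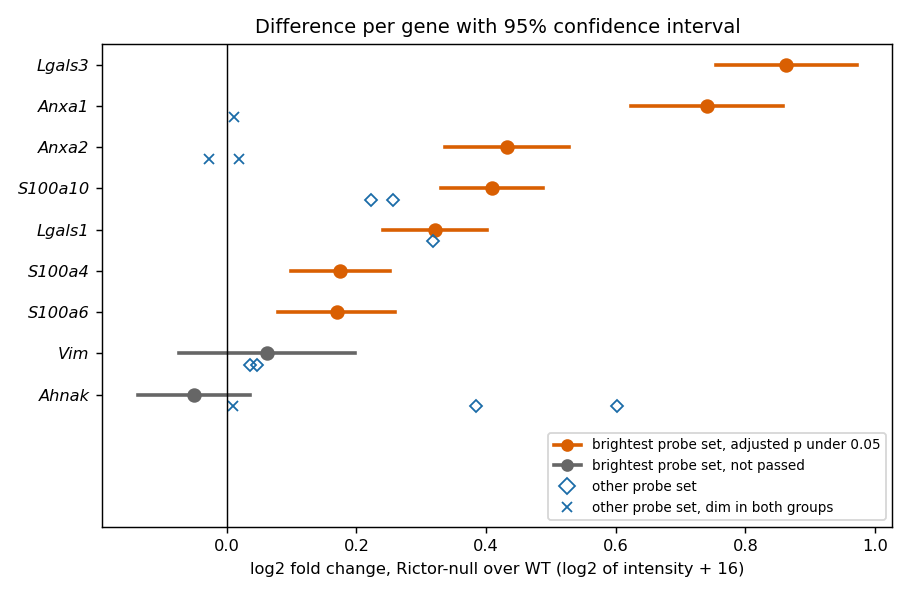
Log2 fold change of each gene (x axis, log2 of intensity + 16), Rictor-null over WT, with its 95% confidence interval for the brightest probe set (circles) and without for the others (blue, crosses where dim in both groups). The circles run from 0.86 for *Lgals3* to -0.05 for *Ahnak*, whose dimmer probe sets lie at 0.38 and 0.60.

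Promoter windows of 250 bases before and 50 after the RefSeq start site were at hand for 8 of the 10 genes (GRCm38.p6). Those of *Lgals3*, *Anxa1* and *Anxa2*, the genes with the largest differences among the 8, and of *Vim*, which did not pass, are shown for comparison. Capitals mark matches to an AP-1 site (TGANTCA), a Foxo site (TGTTTAC), a Runx site (TGTGGT), a box of Krüppel-like factors (CCACCC), a T-box site (GGTGTGA) and an ETS site (GGAAGT), each on both strands, and to a TATA box (TATAAA) on the gene's own strand, which was added after the windows were read. The windows lie at chr14:47373610-47373909 (plus strand), chr19:20390622-20390921 (minus strand), chr9:69453433-69453732 (plus strand) and chr2:13574061-13574360 (plus strand), each printed 5′ to 3′ along its gene.
Lgals3: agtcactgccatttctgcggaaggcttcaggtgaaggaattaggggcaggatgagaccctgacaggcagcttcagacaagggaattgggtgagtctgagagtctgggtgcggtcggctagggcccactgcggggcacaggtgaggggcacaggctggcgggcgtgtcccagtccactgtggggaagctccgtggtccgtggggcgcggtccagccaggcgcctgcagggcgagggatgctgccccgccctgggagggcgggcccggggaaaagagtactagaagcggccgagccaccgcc
Anxa1: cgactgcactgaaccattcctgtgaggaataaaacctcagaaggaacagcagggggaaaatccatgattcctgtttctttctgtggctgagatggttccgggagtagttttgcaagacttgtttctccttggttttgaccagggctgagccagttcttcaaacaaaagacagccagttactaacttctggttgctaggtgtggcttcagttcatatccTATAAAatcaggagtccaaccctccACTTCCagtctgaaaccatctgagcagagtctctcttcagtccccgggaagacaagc
Anxa2: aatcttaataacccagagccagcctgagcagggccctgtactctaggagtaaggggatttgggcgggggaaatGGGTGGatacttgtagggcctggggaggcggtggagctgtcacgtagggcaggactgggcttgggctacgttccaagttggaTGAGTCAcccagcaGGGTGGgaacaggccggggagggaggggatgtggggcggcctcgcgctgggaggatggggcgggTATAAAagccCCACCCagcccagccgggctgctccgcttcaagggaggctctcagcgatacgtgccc
Vim: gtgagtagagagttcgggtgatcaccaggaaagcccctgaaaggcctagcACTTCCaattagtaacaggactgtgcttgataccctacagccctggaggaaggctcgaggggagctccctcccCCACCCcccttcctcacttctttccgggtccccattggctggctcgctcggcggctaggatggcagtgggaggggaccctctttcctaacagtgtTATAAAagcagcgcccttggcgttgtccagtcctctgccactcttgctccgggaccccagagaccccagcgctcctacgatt

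The window of *Lgals3*, the gene with the largest difference, held none of these letters. *Anxa2* held an AP-1 match 95 bases before the start site, 3 Krüppel-like factor boxes and a TATA box. *Anxa1* and *Vim* both held a TATA box beginning 32 bases before the start and 1 ETS match, although *Anxa1* was called higher and *Vim* was not. Over the 8 windows the TATA letters were in 4 (*S100a4*, *Anxa1*, *Anxa2* and *Vim*), beside 8.32% of all 32851 windows of this length. AP-1 letters were in 2 (*S100a11* and *Anxa2*, beside 7.81%), ETS letters in 4 (beside 23.8%), Krüppel-like factor boxes in 4 (beside 31.5%), Runx letters in 1 (*S100a6*, beside 16.8%), and Foxo and T-box letters in none (beside 3.65% and 3.98%). No match overlapped another, except that the AP-1 letters read the same on both strands. These are matches of letters and were not tested as binding sites.

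Mouse S100 genes lie for the most part together on chromosome 3, and 11 of 14 S100a genes there had a probe set of their own. Of the 11, 6 passed limma as higher in Rictor-null TFH cells, beside 12.5% of all genes, and none was lower even at an unadjusted p under 0.05. Without WT replicate 1 or without WT replicate 2 the count was 2, *S100a10* and *S100a13*, and without Rictor-null replicate 1 it was 3, with *S100a4* as well. *S100a13*, which encodes a protein that aids the release of growth factors lacking a signal peptide, was at 2054 and 1987 in the Rictor-null arrays and 1331 and 1348 in the WT arrays. Its log2 difference of 0.59 ± 0.04 (limma, adjusted p = 2.51e-06) was above those of *S100a4*, *S100a6* and *S100a10*. *S100a1*, at 57.9 and 42.0 in Rictor-null against 26.9 and 32.9 in WT cells, and *S100a8*, at 33.8 and 29.8 in Rictor-null against 21.7 and 23.4 in WT cells, were also higher, with log2 fold changes of 0.51 and 0.31. Neither of these weakly read genes passed without Rictor-null replicate 1, WT replicate 1 or WT replicate 2 (adjusted p from 0.0668 to 0.159 from limma). *S100a5*, which lies between *S100a4* and *S100a6*, was below the median of all values, at 9.03 and 8.84 in Rictor-null and 8.52 and 7.38 in WT cells. *S100a9*, which encodes the partner of S100A8 in neutrophils and monocytes, was at 27.2 and 20.5 in Rictor-null against 23.3 and 17.6 in WT cells and did not pass (adjusted p = 0.427 from limma).

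**Figure D3:**
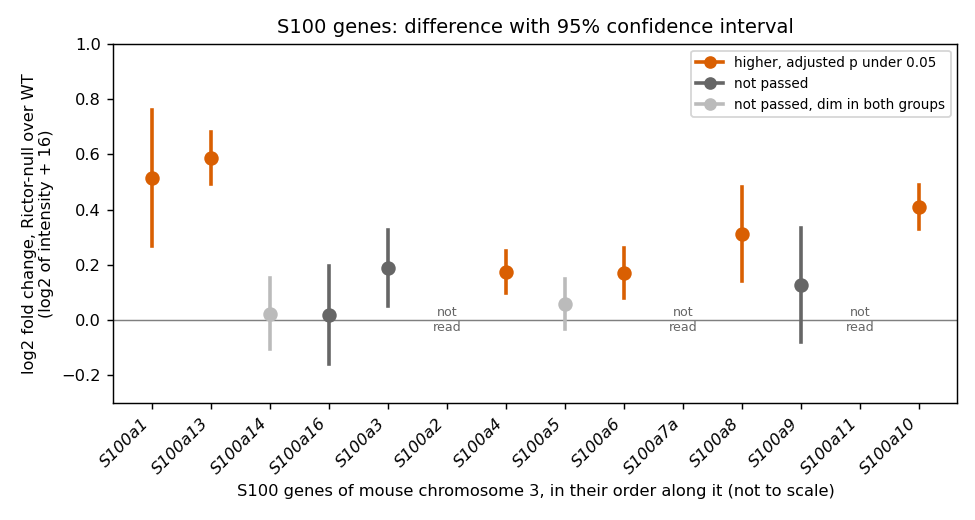
Log2 fold change, Rictor-null over WT (y axis, log2 of intensity + 16), with 95% confidence intervals for the S100 genes of chromosome 3 in their order along it (x axis, not to scale). The 6 orange genes passed, from 0.17 for *S100a6* to 0.59 for *S100a13*, and genes marked "not read" have no probe set of their own.

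Other members of the galectin and annexin families were set beside these genes. Of 8 other galectin genes, 1 was higher and none lower, *Lgalsl* at 152 and 152 in Rictor-null against 116 and 107 in WT cells (log2 fold change 0.40, adjusted p = 0.00172 from limma), a call that ended without WT replicate 2 (adjusted p = 0.0609). The second probe set of *Lgalsl* was at 0.16 and did not pass (adjusted p = 0.296 over all probe sets from limma). At an unadjusted p under 0.05, 2 of the 8 genes were higher and none lower. *Lgals9*, which encodes the ligand galectin-9, was at 543 and 538 in Rictor-null against 535 and 487 in WT cells and did not pass (adjusted p = 0.395 from limma). Of 9 other annexin genes, 1 was higher and none lower, and 3 were higher and none lower at an unadjusted p under 0.05. The called gene, *Anxa4*, was at 118 and 104 in Rictor-null against 83.0 and 75.7 in WT cells (log2 fold change 0.41, adjusted p = 0.00391 from limma). It did not pass without either WT array. Its other probe sets were at 0.21 and 0.08 and did not pass (adjusted p = 0.14 and 0.414 over all probe sets from limma). The brighter *Anxa5* and *Anxa6* were at log2 fold changes of 0.10 and 0.19 and did not pass (adjusted p = 0.157 and 0.0541 from limma), although *Anxa6* passed with the replicate number as a block (adjusted p = 0.0494). The median log2 fold change was 0.09 in both families.

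Among 17 measured receptors and binding partners of these proteins, 2 were higher and 7 lower in Rictor-null TFH cells, with 2 lower without WT replicate 1, 3 without WT replicate 2 and 4 without Rictor-null replicate 2. *Myh9*, which encodes the myosin heavy chain bound by S100A4, was lower, at 3752 and 3550 in the Rictor-null arrays and 5109 and 4889 in the WT arrays. The log2 difference was -0.45 ± 0.04 (limma, adjusted p = 1.65e-05), opposite in sign to that of *S100a4*. *Lgals3bp*, which encodes a galectin-3 binding glycoprotein, was at 445 and 438 in Rictor-null against 589 and 551 in WT cells, a log2 fold change of -0.36 (adjusted p = 0.000487 from limma). *Plec*, encoding the linker plectin that ties vimentin filaments to other structures, was at 358 and 349 in Rictor-null against 455 and 429 in WT cells (log2 fold change -0.31, adjusted p = 0.00168 from limma), and did not pass without WT replicate 1 (adjusted p = 0.0699). The higher partners were *Cd7*, a galectin-1 receptor gene of T cells, at 188 and 202 in Rictor-null against 138 and 127 in WT cells, and *Cacybp*, which encodes the calcyclin-binding protein, at 1013 and 998 in Rictor-null against 924 and 831 in WT cells. *Cd7* had a log2 fold change of 0.50 (adjusted p = 0.000271 from limma) and *Cacybp* of 0.19 (adjusted p = 0.0236 from limma), and *Cacybp* did not pass without Rictor-null replicate 1 or WT replicate 2. *Ptprc* and *Spn*, which encode the galectin-1 receptors CD45 and CD43, were lower at log2 fold changes of -0.17 and -0.18, and neither passed without WT replicate 1 or WT replicate 2. The second probe set of *Spn* was at 0.09 and did not pass (adjusted p = 0.636 over all probe sets from limma). Adjusted likewise, the first did not pass either (0.0697). The lower genes also included *Mgat5* and *Fpr2*. *Mgat5*, an enzyme gene, was at a log2 fold change of -0.34 (adjusted p = 0.0198 from limma). *Fpr2*, a receptor gene for annexin A1, lay below the median of all values in both groups, with means of 13.2 in Rictor-null and 17.1 in WT cells. Its adjusted p from limma was 0.0489, or 0.0894 over all probe sets.

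Of 10 other intermediate filament genes, lamins included, none passed limma in either direction, with 2 higher and none lower at an unadjusted p under 0.05. Without Rictor-null replicate 1, *Lmnb1* passed as lower (log2 fold change -0.31, adjusted p = 0.0404 from limma).

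Genes known to accompany this group in effector and migratory T cells changed in both directions. Of 21 measured, 11 were higher and 4 lower. *Crip1*, which encodes a small LIM protein, was at 8474 and 8644 in the Rictor-null arrays and 5629 and 6103 in the WT arrays (log2 fold change 0.54, adjusted p = 4.45e-06 from limma). *Id2*, encoding an inhibitor of E proteins, was at 2567 and 2565 in Rictor-null against 1738 and 1714 in WT cells, a log2 fold change of 0.57 (adjusted p = 2.25e-06 from limma). A second bright probe set of *Id2* was at 0.15 and did not pass (adjusted p = 0.103 over all probe sets from limma). Another, far dimmer, was at 0.44 (adjusted p = 0.0051 from limma). The chemokine receptor gene *Ccr2* was at 572 and 631 in Rictor-null against 332 and 347 in WT cells, a log2 fold change of 0.79 (adjusted p = 3.33e-06 from limma). The membrane protein gene *Emp3* was at 1977 and 1953 in Rictor-null against 1384 and 1342 in WT cells. The lower genes were *Cnn2*, *Rora*, *Cd44* and *Itgb7*, with log2 fold changes from -0.31 to -0.15. The count of higher genes was 6 without WT replicate 2, and the count of lower genes 1 without either WT array.

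Other cell types also carry galectin-3, S100 proteins, annexins and vimentin, above all macrophages and monocytes. Of 25 measured myeloid markers, 8 were higher in Rictor-null TFH cells and none lower, with 10 higher and none lower at an unadjusted p under 0.05. Their summed intensity was 4325 and 4048 in the Rictor-null arrays and 3688 and 3635 in the WT arrays. The brightest of them, *Ctss*, was at 2398 and 2276 in Rictor-null against 2404 and 2394 in WT cells. It did not pass (adjusted p = 0.635 from limma) and made up the largest part of each sum. *Lyz2* was at 113 and 102 in Rictor-null against 58.1 and 54.7 in WT cells, and *Itgax*, which activated T cells can also express, at 145 and 142 in Rictor-null against 54.4 and 45.6 in WT cells. *Fcgr3* was at 108 and 81.4 in Rictor-null against 30.4 and 29.5 in WT cells. *Lyz1* was at 255 and 238 in Rictor-null against 135 and 138 in WT cells. The other higher genes were *Itgam*, *Cst3*, *Tyrobp* and *S100a8*, at log2 fold changes of 0.64, 0.47, 0.41 and 0.31. The macrophage genes *Csf1r*, at 36.4 and 30.8 in Rictor-null against 28.3 and 25.6 in WT cells, and *Adgre1*, at means of 20.3 in Rictor-null and 17.6 in WT cells, did not pass. *Cd14*, *Mrc1* and *C1qa* lay under the median of all values in both groups. *S100a8* and *S100a9* stand in this list as well as in the S100 list. Of 11 B and plasma cell markers 4 were higher (2 without WT replicate 2), led by *Jchain* at 378 and 353 in Rictor-null against 126 and 113 in WT cells, while *Ms4a1* and *Cd79a* lay under the median. Also higher were *Cd79b*, *Pax5* and *Mzb1*, the last at 102 and 90.8 in Rictor-null against 43.1 and 46.6 in WT cells. *Cd79b* and *Pax5* had log2 fold changes of 0.40 and 0.22, and *Pax5* lay under the median in both groups. The second probe set of *Pax5* was at 0.015 and did not pass (adjusted p = 0.881 over all probe sets from limma). The count of higher B and plasma cell markers was 3 with the mean of all probe sets, and 3 with dim genes left out. The summed intensity of the 11 markers was 608 and 567 in Rictor-null against 278 and 265 in WT cells. Of 6 NK and CD8 markers *Klre1* and *Cd8b1* were higher and *Klra1* lower, a call that ended with any 1 array left out. *Klra1* lay under the median of all values in both groups. *Cd8a* was at 23.7 and 25.2 in Rictor-null against 24.7 and 24.0 in WT cells and did not pass (adjusted p = 0.983 from limma). The sum of the 6 markers was 238 and 211 in Rictor-null against 159 and 152 in WT cells. The sum of the mitosis genes was 4610 and 4637 in Rictor-null against 2980 and 2912 in WT cells, and all 17 measured mitosis genes were higher (median log2 fold change 0.60). The part of these cells, and of dividing cells, in the differences of the galectin, S100 and annexin genes was not tested.

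**Figure D4:**
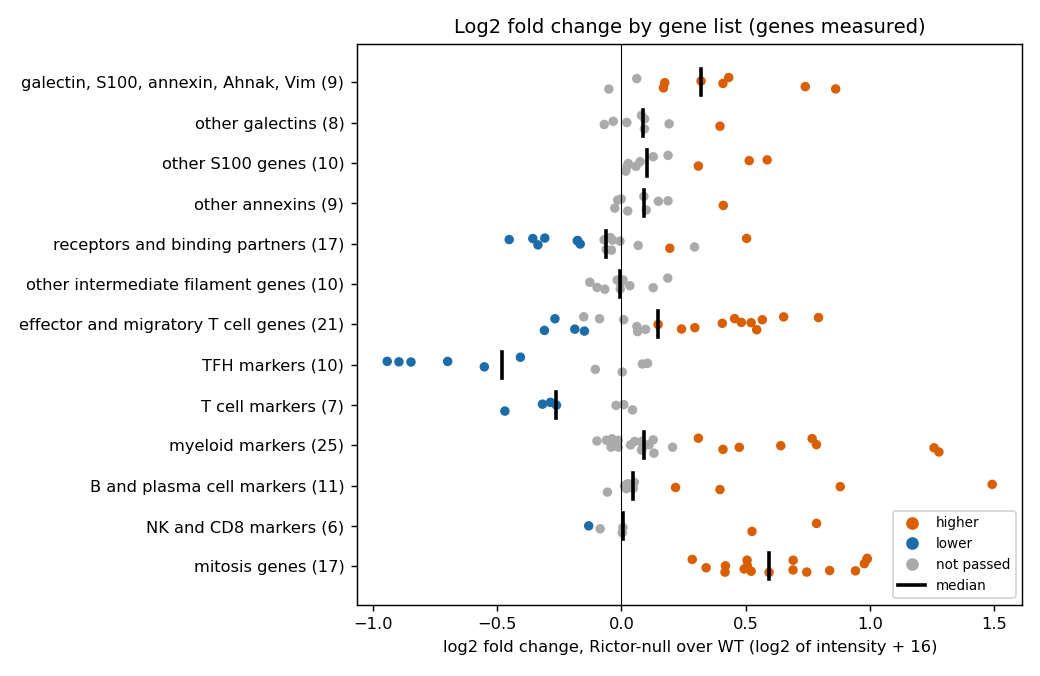
Log2 fold change of each measured gene (x axis, log2 of intensity + 16), Rictor-null over WT, in 13 lists with the number of genes in brackets; orange and blue points passed as higher and lower, grey points did not, and black bars are medians. The median of the 9 galectin, S100, annexin and cytoskeletal genes is 0.32, beside 0.09 for the other galectins and annexins and -0.48 for the TFH markers.

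Other bright genes lay close to the mean profile of the 9 genes over the 4 arrays. Among 4435 genes with a mean intensity of at least 200, those with the smallest root mean square distance between their centred log2 values and the mean of the 9 genes were *Vmp1*, *Ppp2r3c*, *Glrx*, *Pcna* and *Nop10*. Their distances were 0.0029 to 0.011 on the log2 scale, over 4 arrays. *Vmp1*, for example, was at 1082 and 1092 in the Rictor-null arrays and 857 and 847 in the WT arrays. With 4 arrays in 2 groups, such likeness reflects little beyond an equal log2 fold change, which was 0.33 to 0.36 for these genes.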

How the data were processed

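RNA of sorted TFH cells was hybridised to 1-colour Affymetrix mouse arrays by a company. The deposited values are intensities per probe set on a linear scale, and their nearly equal array medians show that arrays had been scaled before deposit. Their processing notes name MAS5 and RMA, with no version or role for either. Probe sets were named from the platform annotation: of 45037, 34945 name 1 gene, 932 several and 9160 none. Only the first kind was used, and an update of symbols through RefSeq changed 0.

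Values were taken to log2(intensity + 16), and the brightest probe set by mean over the 4 arrays stood for each of 18193 genes. The Rictor-null group was set against the WT group in limma (version 3.58.1, R 4.3.3), using lmFit and a trended eBayes, and p-values were adjusted by Benjamini-Hochberg over all genes with a threshold of 0.05. Other probe sets were fitted together and adjusted over all of them. The fit was tested on simulated data with known changes. Called dim are probe sets whose group means both lay under the median of all values (20.1). P-values measure only spread between pools of a group. With 2 pools in each, the trended eBayes draws each gene's variance towards that of genes with a like mean signal.

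The genes and lists were chosen with earlier results of these data known, and lists are described by counts and medians with no test of the list. Genes named are the 10 chosen ones, up to 4 genes of each other list with the smallest p, the S100 genes of chromosome 3 and the 5 nearest profiles. *Lgals9*, *Ptprc*, *Spn*, *Fpr2*, *Cacybp*, *Cnn2*, *Rora*, *Cd44*, *Itgb7*, *Foxp3*, *Cd3d*, *Csf1r*, *Adgre1*, *Cd14*, *Mrc1*, *C1qa*, *Ms4a1* and *Cd79a* were added for what they are known to do, or to complete a count, after their values were seen. So were *Mgat5*, *Itgam*, *Cst3*, *Tyrobp* and *Ctss*, to complete a count or a sum, and *Cd8a*, to stand beside *Cd8b1*. The alternatives were a pseudocount of 1, quantile normalization, median centring, leaving out dim genes, the mean of all probe sets, adjustment over all probe sets, an untrended eBayes, a replicate block, each array left out, and the unpaired one-tailed t-test of the methods. Protein sequences were not used here.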

Additional observations from a re-analysis of the deposited data

How the results depend on the processing

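Over 14 alternatives, 109 of 126 values of the 9 genes kept both their direction and their side of the threshold. *Vim*, which passed in neither fit, turned without Rictor-null replicate 2, and *Ahnak* turned to 0.24 with the mean of all probe sets, where *Anxa2* no longer passed (0.14). In fits with an array left out, *S100a4* ran from 0.17 to 0.18, *S100a6* from 0.13 to 0.21 and *Vim* from -0.0548 to 0.1786, and the lone array of a group was assumed to vary like the others. *S100a6* (0.17) did not pass in limma without the trend. The count of higher genes among the 9 was 5 without either WT array and 7 without either Rictor-null array, where *Vim* took the place of *S100a6* in the fit without Rictor-null replicate 1. It was 7 by the methods' t-test and 0 after adjustment, where *Lgals1* (0.32), *Lgals3* (0.86), *S100a4* (0.17), *S100a6* (0.17), *S100a10* (0.41), *Anxa1* (0.74) and *Anxa2* (0.43) all failed, with adjusted p-values from 0.0661 to 0.139.

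Over all genes, 2283 were higher and 1308 lower. With an array left out these counts ran from 930 to 2000 and from 457 to 1048. With the mean of all probe sets 842 were lower, by the methods' t-test 2231 were lower, and after its adjustment 3 were higher and 3 lower. The replicate number as a block gave 2366 higher and 1382 lower and the same 7 calls; same-numbered arrays did not deviate together (correlation -0.03 across 18193 genes), so that the numbers pair nothing. Of 1766 values of the other lists, 95 fell short of the threshold, 23 newly passed and 73 changed sign, all of them in genes that passed in neither fit. Of the 25 myeloid markers 7 were dim in both groups, where low signal limits what can be read.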

Other observations

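The probe set annotated to *S100a11* together with *S100a11-ps* and *Gm12854* names no single gene and entered no comparison. It read 4980 and 4821 in the Rictor-null arrays and 5300 and 5296 in the WT arrays. Its log2 fold change was -0.11 (standard error 0.03, adjusted p = 0.0572 from limma over 45037 probe sets), so that it did not pass, while *S100a10*, its neighbour on chromosome 3, was higher at 0.41. How much of that signal comes from *S100a11* cannot be read from the probe set.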
